A study of Mus musculus with 20 samples.

Results

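Etnppl and 9 genes by which astrocytes are recognised (Aldh1l1, Fgfr3, Aqp4, Slc1a2, Slc1a3, Glul, Aldoc, Gja1 and Gjb6) were followed in the hippocampus of young and aged mice with and without 11β-HSD1, the enzyme that regenerates active glucocorticoid inside cells. The 10 genes were chosen by name, among 18193 genes that have at least 1 probe set listed with a single symbol on the chip. Each gene was read from its probe set of the highest mean over the 20 arrays, all 10 of which passed the filter on low values, and 12 of their 21 further probe sets passed it and served as a check. Etnppl was picked by the study on these same arrays for its pattern over the groups, so its levels are given as a description, without a test, and the counts of tested genes below are of the other 9.

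All mice were male. The wild-type groups were C57BL/6J mice, young at 6 months (WT_Y) or aged at 24 months. Aged wild-type mice had been sorted by the study on spatial memory in a Y-maze into unimpaired (WT_AU) and impaired (WT_AI) animals, which together form WT_A. The Hsd11b1-/- groups, young at 6 months (KO_Y) and aged at 24 months (KO_A), were homozygous for a targeted disruption of Hsd11b1 in every cell, congenic on the same strain. Each group had 4 mice and each mouse 1 chip of whole hippocampal RNA, and all had been behaviourally tested. Single mice are given as the group followed by the animal's label number.

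Astrocytes clear glutamate and potassium from the space around synapses, turn glutamate into glutamine and pass it back to neurones, wrap blood vessels with endfeet and are coupled to each other through gap junctions. Etnppl, formerly named Agxt2l1, encodes ethanolamine-phosphate phospho-lyase, which breaks down phosphoethanolamine, a building block of membrane lipids, and in brain it is found mainly in astrocytes. Aldh1l1, a folate enzyme, and Fgfr3, a receptor for fibroblast growth factors, mark astrocytes widely. Slc1a2 (GLT-1) and Slc1a3 (GLAST) are the glutamate transporters, Glul is glutamine synthetase, Aldoc is the glycolytic enzyme aldolase C, Aqp4 is the water channel of the endfeet, and Gja1 and Gjb6 are the gap junction proteins connexin 43 and connexin 30.

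The start regions of Etnppl and of the 3 members whose levels were most correlated with it within groups are shown here, as RefSeq sequence of build GRCm38.p6, from 250 bases before to 50 bases after each annotated start. Capitals mark any match, on either strand, to 4 short motifs, namely AGAACA of the glucocorticoid receptor, TTGGCA of NFI factors, TTCNNNGAA of STAT factors and TATAAA, the TATA box. Etnppl has 2 annotated starts whose windows overlap (first, chr3:130617198-130617497, plus strand; second, chr3:130617325-130617624, plus strand). The others are Slc1a3 (chr15:8710758-8711057, minus strand), Aldh1l1 (chr6:90550543-90550842, plus strand) and Gjb6 (chr14:57133562-57133861, minus strand).
Etnppl, first start: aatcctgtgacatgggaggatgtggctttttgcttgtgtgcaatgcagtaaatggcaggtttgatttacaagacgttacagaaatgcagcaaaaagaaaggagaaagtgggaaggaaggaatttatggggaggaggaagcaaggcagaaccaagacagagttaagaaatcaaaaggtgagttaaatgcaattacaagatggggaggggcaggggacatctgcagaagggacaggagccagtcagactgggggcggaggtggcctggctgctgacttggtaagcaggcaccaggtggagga
Etnppl, second start: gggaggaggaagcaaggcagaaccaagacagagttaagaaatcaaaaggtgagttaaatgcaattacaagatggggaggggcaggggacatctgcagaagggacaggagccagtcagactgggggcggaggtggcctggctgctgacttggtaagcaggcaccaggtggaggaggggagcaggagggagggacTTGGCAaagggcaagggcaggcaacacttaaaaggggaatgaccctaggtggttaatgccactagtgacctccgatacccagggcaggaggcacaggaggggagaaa
Slc1a3: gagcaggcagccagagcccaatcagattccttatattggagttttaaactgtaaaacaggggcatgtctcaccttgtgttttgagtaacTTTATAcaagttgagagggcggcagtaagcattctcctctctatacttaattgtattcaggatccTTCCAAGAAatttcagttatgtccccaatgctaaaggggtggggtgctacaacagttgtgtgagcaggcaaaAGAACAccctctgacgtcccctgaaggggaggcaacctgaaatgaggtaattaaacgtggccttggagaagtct
Aldh1l1: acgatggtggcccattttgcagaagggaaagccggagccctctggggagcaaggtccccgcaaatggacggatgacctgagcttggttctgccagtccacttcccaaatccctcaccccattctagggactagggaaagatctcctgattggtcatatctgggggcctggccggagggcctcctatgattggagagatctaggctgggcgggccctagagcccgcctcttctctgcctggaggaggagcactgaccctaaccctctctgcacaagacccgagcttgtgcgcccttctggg
Gjb6: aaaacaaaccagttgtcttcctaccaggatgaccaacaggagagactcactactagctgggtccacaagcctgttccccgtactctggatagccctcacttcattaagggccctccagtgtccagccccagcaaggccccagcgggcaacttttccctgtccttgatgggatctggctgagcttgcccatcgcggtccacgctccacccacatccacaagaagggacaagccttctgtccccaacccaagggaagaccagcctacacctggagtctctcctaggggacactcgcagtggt
The second Etnppl window holds TTGGCA, beginning 57 bases before the start, and the first holds none of the 4 motifs. The Slc1a3 window holds AGAACA, TTCNNNGAA and, on the other strand, TATAAA. The Aldh1l1 and Gjb6 windows hold none. Over the 12 windows of 9 members, 1 held AGAACA, 2 TTGGCA, 2 TTCNNNGAA and 1 TATAAA. Over all 32851 windows of the same length, 19% held AGAACA, 14.1% TTGGCA, 8.3% TTCNNNGAA and 13.6% TATAAA. A match says only that the letters are present.

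The targeted gene separated the genotypes on every chip, with Hsd11b1 at 549.6 to 804.2 in wild-type mice and 39.5 to 65.2 in Hsd11b1-/- mice. Neuronal Snap25 lay between 9939 and 11722 and the CA1 marker Wfs1 between 521 and 930.4. For Wfs1 all KO_A mice lay below all KO_Y mice (574 to 749 against 769 to 930.4), which held for 1.77% of the probe sets. Other checks on the tissue were less even, with Prox1 at 63.2 to 227.3 and Alb, a blood and liver marker, at 31.6 to 2912. Within WT_Y alone Prox1 ran from 63.2 to 223.9 and Alb from 32.9 to 2912. Ttr, which is made by the choroid plexus next to the hippocampus, ranged from 1143 to 21918 and varied almost as widely within groups. Mouse KO_A-41 stood apart from the other 3 aged Hsd11b1-/- mice. It was the lowest of its group for 9 of the 10 members, against 29.5% of all 16995 probe sets kept. Many of the counts and medians that rest on the KO_A group are therefore also given without it.

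Etnppl was highest in WT_AU and KO_A and lower in the other groups. It read 212.5, 306.9, 148.8 and 219.8 in WT_Y mice (SEM 32.5, n = 4, the mean lying between those of KO_Y and WT_AI), on the linear scale of normalised chip intensity. It read 157, 195.5, 206 and 224.5 in KO_Y mice (mean 195.9 ± 14.2) and 203, 243, 336 and 210.4 in WT_AI mice (mean 248 ± 30.6). It read 313, 506, 267.5 and 636 in WT_AU mice (mean 430.5 ± 85.8) and 238, 540.2, 548 and 403 in KO_A mice (mean 432 ± 72.7). Mice WT_AU-57, KO_A-222, KO_A-42 and WT_AU-23 held the 4 highest values of the 20. WT_AU-26, WT_AU-126 and KO_A-41 lay below the highest mouse of the lower groups, WT_AI-49 at 336.

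The order of the group means was KO_Y, WT_Y, WT_AI, WT_AU and KO_A. KO_Y, WT_Y and WT_AI overlapped each other, as did WT_AU and KO_A, and both WT_AU and KO_A also overlapped WT_Y and WT_AI, KO_A through KO_A-41. The 4 KO_A values all lay above the 4 KO_Y values, though the lowest of them, KO_A-41, exceeded the highest KO_Y value by little (238 against 224.5). On the log2 scale Etnppl differed by 1.08 ± 0.29 (SE) between KO_A and KO_Y and by 1.34 ± 0.27 without KO_A-41. It differed by 0.91 ± 0.29 between WT_AU and WT_Y, by 0.18 ± 0.29 between WT_AI and WT_Y and by -0.74 ± 0.29 between WT_AI and WT_AU. The log2 difference was 0.55 ± 0.25 between WT_A and WT_Y, -0.15 ± 0.29 between KO_Y and WT_Y, 0.39 ± 0.25 between KO_A and WT_A and 0.76 ± 0.29 between KO_A and WT_AI. These comparisons share groups and are not independent of one another. The study also measured Etnppl by quantitative PCR, on mice that partly overlapped with these. It reported that the array changes were not fully reproduced. Etnppl was not significantly higher there in WT_AU than in WT_AI or in WT_Y. In whole tissue, fewer or more astrocytes and less or more RNA per astrocyte cannot be told apart, here or in any value that follows.

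**Figure D1:**
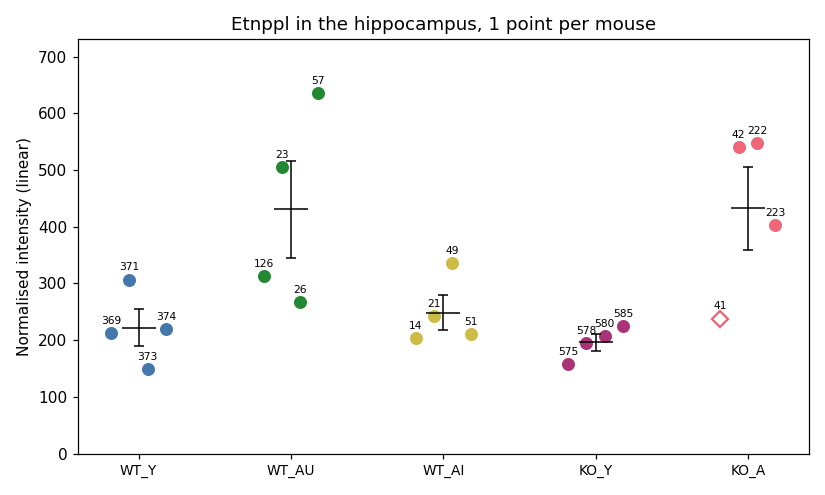
Normalised intensity of Etnppl (vertical axis, linear scale) in each mouse of the 5 groups (horizontal axis), with the mouse number beside each point; horizontal bars are group means and error bars SEM (n = 4). The open diamond is KO_A-41, at 238, well below the other KO_A mice at 403 to 548.

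Etnppl also varied more between mice of the same group than nearly all other transcripts. Its within-group SD was 0.447 on the log2 scale, larger than that of 98.8% of the probe sets kept, whose median was 0.116. By group the SD was 0.584 in WT_AU, 0.562 in KO_A, 0.427 in WT_Y, 0.331 in WT_AI and 0.22 in KO_Y. Among the other members the SD was 0.221 for Gjb6, 0.192 for Aldh1l1, 0.181 for Aqp4 and 0.151 for Fgfr3. It was 0.12 for Aldoc, 0.117 for Slc1a3, 0.0937 for Gja1 and 0.0784 for Glul. Slc1a2, read from its brightest probe set, was the steadiest, with an SD of 0.0545, smaller than that of all but 2.58% of the probe sets. This did not hold for its 2 check probe sets, whose SDs were 0.163 and 0.1925. The second Etnppl probe set averaged 16 and gave no check.

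Age and the 9 other members were compared first in wild-type mice. None of the 9 was called at an adjusted p under 0.05 (limma, Benjamini-Hochberg over all probe sets kept) in WT_A against WT_Y, where 0.594% of the 16995 probe sets were called. The median log2 difference of the 9 was 0.03, with 6 above 0, and 1 had an unadjusted p under 0.05, against 7.1% of the probe sets. None was called in WT_AU against WT_Y (0.43% of probe sets called) or in WT_AI against WT_Y (0.141% called). At an unadjusted p under 0.05 there were 1 and 0 of the 9, against 6.06% and 4.87% of the probe sets. Aldh1l1 read 286 to 353 in WT_A against 280.2 to 408 in WT_Y, and Aqp4 read 1146 to 1492 against 1291 to 1513. The aged range lay within the young one for Aldh1l1 and reached below it for Aqp4.

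Gjb6 had the smallest p of the 9 in these comparisons. It read 800.9, 730.5, 713.5 and 799.9 in WT_Y mice (mean 761 ± 22.9, n = 4), 1074, 928, 935 and 979 in WT_AU mice (mean 979 ± 33.7) and 768, 871, 1052 and 882 in WT_AI mice (mean 893 ± 58.9). All 4 WT_AU mice lay above all 4 WT_Y mice, which held for 2.53% of the probe sets in that direction, and Gjb6 was the only one of the 9 whose groups did not overlap there. The log2 difference was 0.36 ± 0.14 (SE, adjusted p = 0.662) for WT_AU and 0.29 ± 0.13 (adjusted p = 0.604) for WT_A, so that neither passed the test. Its partner connexin Gja1 was below the WT_Y mean in 8 of 8 aged mice, by -0.09 ± 0.06 (adjusted p = 0.881).

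In Hsd11b1-/- mice the 9 members lay higher in aged than in young animals, by amounts that did not pass the test across all probe sets while KO_A-41 was included. In KO_A against KO_Y, 0 of 9 were called, where 2.41% of the probe sets were called and 2.22% were called higher. All 9 log2 differences were above 0, with a median of 0.25 against a median of 0.02 over all probe sets, against 56.4% of the probe sets above 0, and 7 of 9 had an unadjusted p under 0.05, against 20.9% of the probe sets. The adjusted p ran from 0.0522 for Fgfr3 to 0.525 for Slc1a2. With each array centred on its median, Fgfr3 and Aldh1l1 passed (adjusted p = 0.0377 and 0.0478, 2.75% of probe sets called). None of the 9 had groups that did not overlap, which 5.5% of the probe sets had in the higher direction.

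Among the enzymes and the receptor that mark astrocytes widely, Aldh1l1 read 268, 303, 299 and 344 in KO_Y mice and 318, 390.1, 469 and 494 in KO_A mice (mean 304 ± 15.6 and 418 ± 39.8, n = 4 each). The log2 difference was 0.45 ± 0.13 (SE, adjusted p = 0.0676). Fgfr3 read 939, 876, 977 and 837 in KO_Y mice and 971, 1048, 1329.5 and 1435 in KO_A mice (mean 907 ± 31.4 and 1196 ± 111), a log2 difference of 0.38 ± 0.10 (adjusted p = 0.0522). In both genes the lowest KO_A value, which fell within the KO_Y range, was that of KO_A-41.

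Of the genes of glutamate uptake and conversion, Slc1a3 read 1639, 1584, 1564 and 1871 in KO_Y mice and 1688, 2058, 2069 and 2172 in KO_A mice, with a log2 difference of 0.26 ± 0.08 (adjusted p = 0.0911). Glul read 7319, 7137, 7263 and 7133 in KO_Y mice and 7246, 7832, 9123 and 9066.5 in KO_A mice, with a log2 difference of 0.20 ± 0.06 (adjusted p = 0.0817). Slc1a2 was close to level, at 9066 to 9935 in KO_Y mice and 9422 to 10078.5 in KO_A mice (0.06 ± 0.05, adjusted p = 0.525). In Slc1a3 and Glul, again, KO_A-41 lay within the KO_Y range and the other 3 KO_A mice above it. Slc1a2 was the only member whose lowest KO_A mouse was another, KO_A-42.

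Of the endfoot and coupling genes, Aqp4 read 1185 to 1481 in KO_Y mice and 1219, 1605, 2062 and 1413 in KO_A mice (0.25 ± 0.12, adjusted p = 0.238). Gja1 read 3679 to 4419.5 in KO_Y mice and 3803, 4104, 4760 and 4354.5 in KO_A mice (0.11 ± 0.07, adjusted p = 0.345). Gjb6 read 678, 691, 781.5 and 967 in KO_Y mice and 718, 949.7, 1250.1 and 1203 in KO_A mice (0.38 ± 0.14, adjusted p = 0.146). The groups of all 3 overlapped.

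Aldoc differed between its probe sets. The brighter one read 9296, 8334, 9624 and 9471 in KO_Y mice and 9323, 9517, 12463 and 11848 in KO_A mice (0.22 ± 0.08, adjusted p = 0.143). The second read 450, 399.9, 469 and 429 in KO_Y mice and 557, 607, 879 and 929 in KO_A mice, with no overlap, and was called higher (0.73 ± 0.13, SE, adjusted p = 0.00593). It was the only 1 of the 12 check probe sets called in any comparison. In wild-type mice it read 415.5 to 465 in WT_Y and 525 to 693 in the 8 WT_A mice, again with no overlap, which held for 1.08% of the probe sets in that direction, but was not called (0.43 ± 0.11, adjusted p = 0.117). The 2 probe sets were correlated within groups (Pearson r = 0.85 over 20 mice). Of the other 11 check probe sets, 1 of Slc1a2 was below 0 in KO_A against KO_Y (-0.08 ± 0.11) and the rest were above 0.

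**Figure D2:**
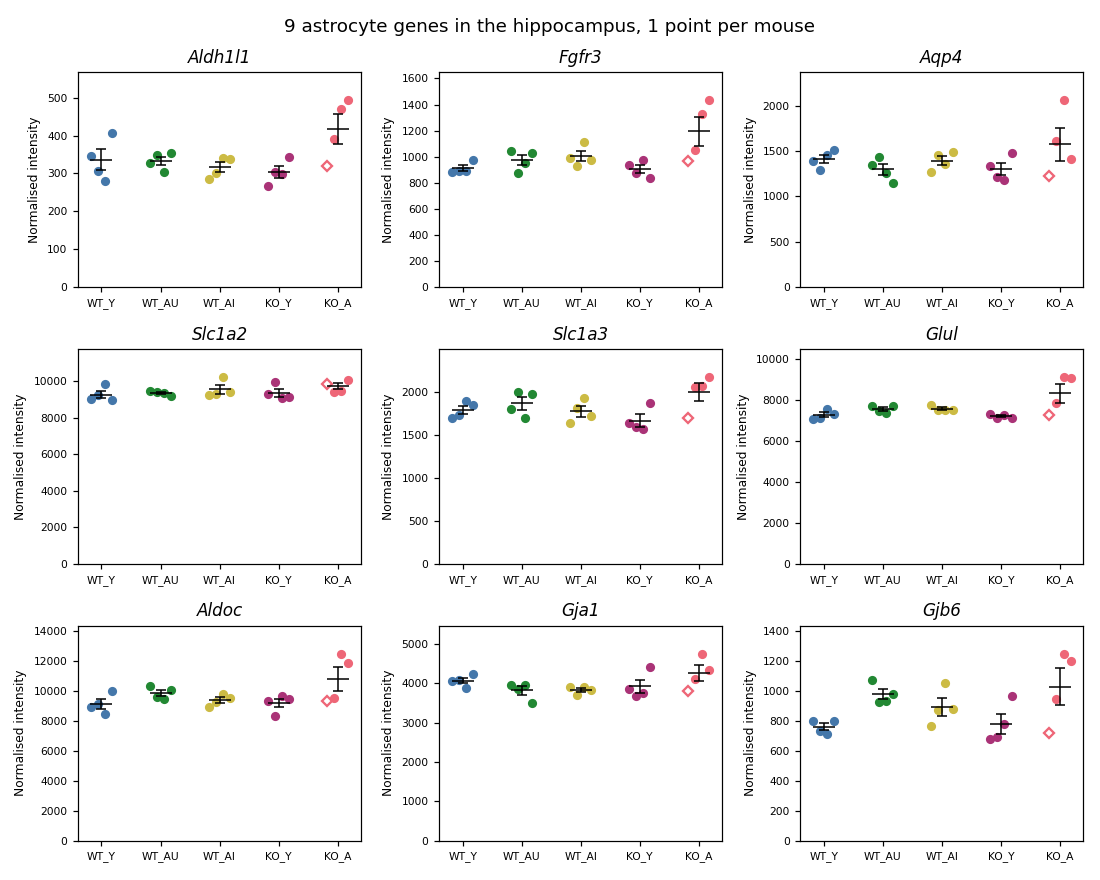
Normalised intensity (vertical axes, linear scale from 0) of the 9 other members in each mouse of the 5 groups (horizontal axes); bars are means and error bars SEM (n = 4). The open diamond is KO_A-41, the lowest KO_A mouse in 8 of the 9 panels, Slc1a2 being the exception.

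The 4 KO_A mice differed among themselves. KO_A-41 lay within the KO_Y range for all 9 members and above it for Etnppl. KO_A-42 lay within it for Gjb6, Aldoc, Gja1 and Slc1a2, KO_A-223 for Aqp4 and Gja1, and KO_A-222 for Slc1a2. Relative to the KO_Y mean on the log2 scale, the median of the 9 members was 0.02 in KO_A-41, 0.21 in KO_A-42, 0.44 in KO_A-222 and 0.37 in KO_A-223. Over all probe sets kept, the same median was 0.02, 0.04, 0.01 and 0.02. For Etnppl the 4 values were 0.29, 1.48, 1.5 and 1.05. Without KO_A-41, 7 of the 9 members were called higher in KO_A than in KO_Y (all but Slc1a2 and Gja1), where 15.5% of the probe sets were called and 11.1% called higher. The log2 differences were then 0.57 ± 0.12 for Aldh1l1 (SE, adjusted p = 0.00465), 0.55 ± 0.12 for Gjb6 (adjusted p = 0.00791) and 0.48 ± 0.09 for Fgfr3 (adjusted p = 0.00409). They were 0.17 ± 0.07 for Gja1 (adjusted p = 0.101) and 0.05 ± 0.05 for Slc1a2 (adjusted p = 0.558). Without it, 4 of the 9 (Aldh1l1, Fgfr3, Slc1a3 and Glul) had groups that did not overlap, against 15.1% of the probe sets in that direction. Leaving out a mouse for being low raises the mean of those that remain, and these values show only how far the group's result rests on it.

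**Figure D3:**
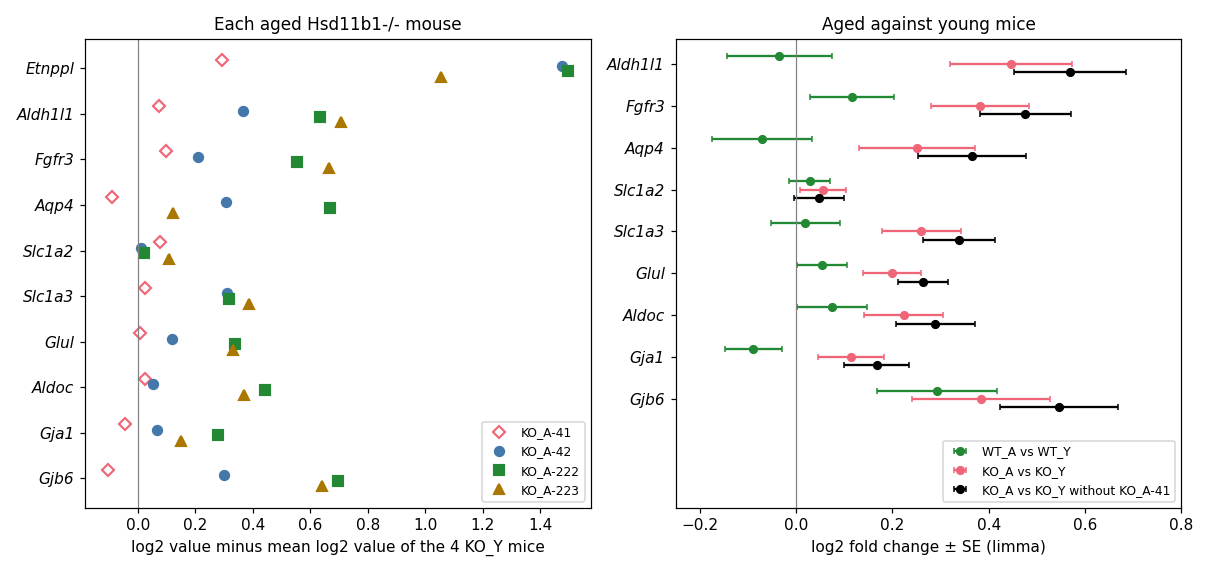
Left, log2 value of each member in each aged Hsd11b1-/- mouse minus the mean of the 4 KO_Y mice (horizontal axis, log2 units); right, log2 fold change with its SE of WT_A over WT_Y, of KO_A over KO_Y and of the latter without KO_A-41. The diamonds of KO_A-41 lie near 0 for all members but Etnppl (0.29), and each gene but Slc1a2 moves to the right when that mouse is left out.

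Genotype was compared within each age. None of the 9 was called in KO_Y against WT_Y, where 0.129% of the probe sets were called (median log2 difference -0.01). An unadjusted p under 0.05 was found for 0 of 9, against 3.71% of the probe sets. None was called in KO_A against WT_A (0.0294% called), in KO_A against WT_AI (0.0118% called) or in WT_AI against WT_AU (0% called), with 5, 5 and 0 at an unadjusted p under 0.05, against 14.8%, 10.7% and 0.883% of the probe sets. All 9 were above 0 in both KO_A comparisons, as were 60.1% and 61.1% of the probe sets, with a median of 0.15 against WT_A and 0.17 against WT_AI. The first was led by Aldh1l1 (0.34 ± 0.11, SE, adjusted p = 0.232) and Fgfr3 (0.26 ± 0.09, adjusted p = 0.244).

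The age effect itself was set against genotype, which tests whether aged and young animals differed by more in Hsd11b1-/- than in wild-type mice. None of the 9 was called (0.0471% of probe sets called), though all 9 differences were above 0 (median 0.20), against 57.5% of the probe sets, and 3 had an unadjusted p under 0.05, against 10.5%. Aldh1l1 had the largest of them at 0.48 ± 0.17 (SE, adjusted p = 0.414). Without KO_A-41 Aldh1l1 was called in this comparison (0.60 ± 0.15, adjusted p = 0.0426, 2.47% of probe sets called) and in KO_A against WT_AI (0.50 ± 0.12, adjusted p = 0.0319, 2.94% called). In KO_A against WT_A without that mouse, Aldh1l1, Fgfr3, Glul and Gja1 were called higher, where 8.31% of the probe sets were called and 6.14% called higher.

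Whether the members moved together was examined within groups, by subtracting each group's mean from the log2 values of its mice and correlating the remainders over the 20 mice. Etnppl was correlated above 0 with 8 of the 9, against 46.7% of all probe sets, but with 4 of the 9 once KO_A-41 was left out. Pearson's r was 0.61 with Slc1a3 (Spearman's rho 0.50), 0.57 with Aldh1l1 (rho 0.54), 0.51 with Gjb6 (rho 0.42) and 0.39 with Aldoc (rho 0.34). It was 0.27 with Aqp4, 0.26 with Fgfr3, 0.26 with Glul, 0.20 with Gja1 and -0.17 with Slc1a2. None of these passed a permutation test within groups adjusted over all 16994 other probe sets (smallest adjusted p = 0.851), and 0% of the probe sets did. Of the 9, 3 had an unadjusted p under 0.05 (Slc1a3, Aldh1l1 and Gjb6), and the share of all probe sets under it was not counted. The r of the 9 exceeded that of 32.9% (Slc1a2) to 98.9% (Slc1a3) of the probe sets. Without KO_A-41, r was -0.04 with Fgfr3, -0.04 with Aqp4, -0.21 with Glul and -0.08 with Gja1. Mice WT_AU-57 and KO_A-41 lay farthest from the median of the Etnppl values, and without them r was 0.35 with Slc1a3, 0.36 with Aldh1l1 and 0.30 with Gjb6, so that these relations rested in large part on those mice. In wild-type mice alone r was 0.54, 0.46 and 0.29, and in Hsd11b1-/- mice alone 0.72, 0.72 and 0.75.

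Among the 9 other members, the 36 pairs had a median r of 0.52 and 31 were above 0. Without KO_A-41 the median fell to 0.26, with 31 still above 0. The 9 pairs with Etnppl had a median of 0.27, and -0.04 without KO_A-41. The difference between the sets of pairs was not tested. The highest were Fgfr3 with Aldoc (0.83), Aldh1l1 with Gjb6 (0.82) and Fgfr3 with Glul (0.82). Slc1a2 had the lowest values, with r between -0.25 and 0.13 to the others. Its 2 check probe sets gave r of -0.08 and 0.51 with the first. That of Glul also gave 0.51 with its brighter probe set (rho 0.16). Those of Slc1a3 gave 0.63 to 0.83, those of Gja1 0.71 to 0.87, that of Aqp4 0.84 and that of Aldoc 0.85.

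Of the 45 pairs only Aldh1l1 with Gjb6 passed the permutation test adjusted over all probe sets (r = 0.82, p = 0.00023, adjusted p = 0.0217; rho = 0.81, adjusted p = 0.0326; n = 20). The share of probe sets that passed with Aldh1l1 was 5.83%, with Aldoc 1.24%, with Gjb6 0.1% and with each of Fgfr3, Aqp4, Slc1a2, Slc1a3, Glul and Gja1 0%. This r was 0.78 without WT_Y-374 and KO_A-41, the mice farthest from the median for Aldh1l1. It was 0.71 without KO_A-41 alone, 0.59 in the 12 wild-type mice and 0.96 in the 8 Hsd11b1-/- mice.

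**Figure D4:**
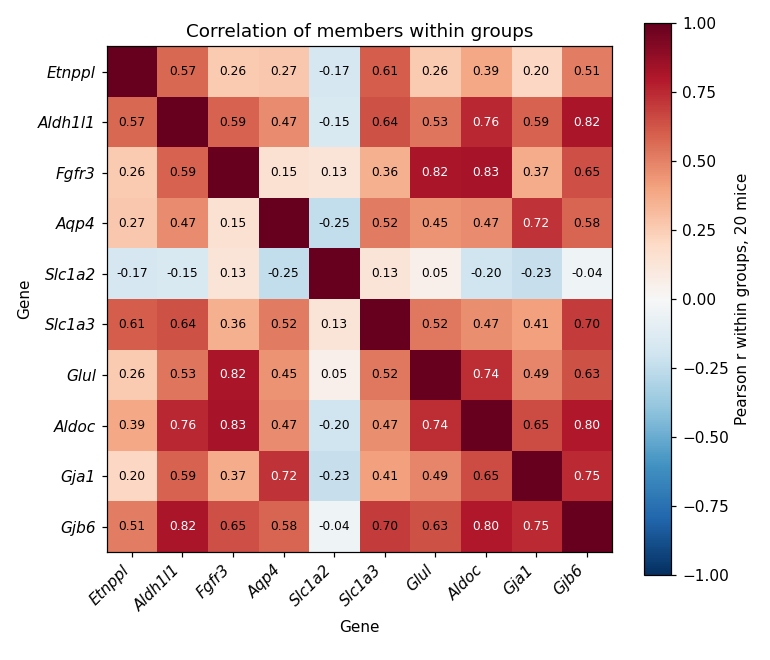
Pearson r between the 10 members after each group's mean was subtracted (20 mice; colour scale from -1 to 1, values printed in the cells). The block from Aldh1l1 to Gjb6 is above 0 throughout save for the Slc1a2 row and column, and the Etnppl row runs from -0.17 to 0.61.

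The genes whose levels followed Etnppl most closely within groups were named over 9881 genes. The highest r was that of Mt1 (0.81, rho 0.78) and the third that of Mt2 (0.79, rho 0.76), both metallothioneins that bind zinc and copper and are made in quantity by astrocytes. Between them stood Cst3, the secreted protease inhibitor cystatin C (0.81, rho 0.77). Fam107a (0.78), Tmbim6 (0.76), Trmt112 (0.74), Snx5 (0.74), Slc12a9 (0.74), Gm19439 (0.74) and Toe1 (0.74) completed the first 10. The 5 lowest were Lrrc42 (-0.78), Crhbp, a binding protein for corticotrophin-releasing hormone (-0.77), Zmym1 (-0.77), Edrf1 (-0.76) and Pcsk5 (-0.75). None passed the permutation test over all probe sets (adjusted p = 0.851 for each). Without WT_AU-57 and KO_A-41 r was 0.71 for Mt1, 0.65 for Cst3, 0.68 for Mt2 and -0.78 for Crhbp.

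Mt1, Cst3 and Mt2 were each above 0 within either genotype. In the 12 wild-type mice r was 0.83, 0.78 and 0.73, and in the 8 Hsd11b1-/- mice 0.79, 0.87 and 0.88. A probe set with no gene symbol had the highest r of all (1441430_at, r = 0.95, rho = 0.93, adjusted p = 0.51). It read 93 in KO_A-41 and 149.7 to 197.7 in the other KO_A mice, and 104.5 to 229 in WT_AU against 71.1 to 129 in WT_AI.

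**Figure D5:**
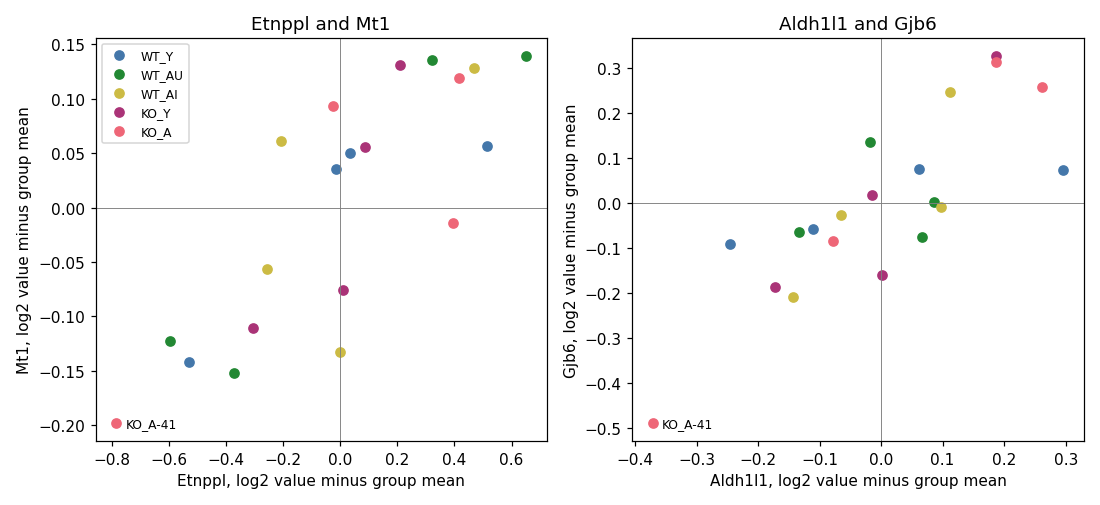
Log2 value minus group mean in each of the 20 mice, for Mt1 against Etnppl (left) and for Gjb6 against Aldh1l1 (right), coloured by group. KO_A-41 is the lowest mouse for all 4 genes, and the remaining mice also spread along the diagonal (r = 0.81 and 0.82 over all 20).

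Further astrocyte genes were read from a list of 37, of which 34 passed the filter. In WT_A against WT_Y only Gfap, the intermediate filament of astrocytes, was called (0.73 ± 0.14, adjusted p = 0.0204), where 60 of 9891 genes were called higher. The median of the list was 0.03. In KO_A against KO_Y all 34 were above 0, against 59.1% of all genes, with a median of 0.26 against 0.03. Called higher were S100b, a calcium-binding protein (0.74 ± 0.11, adjusted p = 0.00228), Apoe, the lipid carrier (0.32 ± 0.06, adjusted p = 0.0109), Gfap (0.87 ± 0.17, adjusted p = 0.0116), Bmpr1b, a BMP receptor (0.44 ± 0.09, adjusted p = 0.0187), and Mlc1, an endfoot membrane protein (0.41 ± 0.10, adjusted p = 0.0361). That was 5 of 34, where 248 of 9891 genes were called higher. Without KO_A-41 it was 23 of 34, where 1202 of 9891 genes were. In KO_A against WT_A all 34 were above 0 (median 0.21), against 62.9% of all genes, and 0 were called. Without KO_A-41, 14 were called higher, where 687 of 9891 genes were. Of the 34, 31 had an r above 0 with Etnppl (median 0.44), against 48.7% of all genes. Without KO_A-41 it was 27 (median 0.18), against 45.7%.

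A list of genes induced in reactive astrocytes, which also holds Gfap, had 14 of 23 measured. Aged over young, their median was 0.56 in wild-type and 0.33 in Hsd11b1-/- mice, with Gfap and Osmr, the oncostatin M receptor, called in both (Osmr 0.93 ± 0.16 and 0.92 ± 0.18, adjusted p = 0.00557 and 0.0124). Over all 9891 genes, 60 were called higher with age in wild-type and 248 in Hsd11b1-/- mice. Without KO_A-41, 6 of the 14 were called higher in KO_A than in KO_Y (median 0.41), where 1202 of 9891 genes were. In KO_A against WT_A the median of the 14 was -0.10 with 5 above 0, and -0.01 with 7 above 0 without KO_A-41. Within groups 12 of the 14 had an r above 0 with Etnppl (median 0.26), 10 without KO_A-41.

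Of 10 measured genes of phosphoethanolamine and phosphatidylethanolamine metabolism, the pathway of Etnppl, Pisd, which makes phosphatidylethanolamine in mitochondria, was called higher in WT_A against WT_Y (0.32 ± 0.06, adjusted p = 0.0169) and reached 0.18 ± 0.07 in KO_A against KO_Y (adjusted p = 0.172). Over all 9891 genes, 60 were called higher in WT_A against WT_Y. Gde1, a glycerophosphodiesterase, was called lower in KO_A against KO_Y (-0.18 ± 0.05, adjusted p = 0.0489), where 16 of 9891 genes were. Etnk1, which makes phosphoethanolamine, differed by -0.21 ± 0.09 in KO_A against KO_Y (adjusted p = 0.181). Without KO_A-41 Etnk1 was called lower (-0.29, adjusted p = 0.0248), as was Gde1, where 379 of 9891 genes were. Within groups 5 of the 10 had an r above 0 with Etnppl, with a median of -0.11, and 0.02 without KO_A-41. The highest r of the list was that of Pisd (0.32).

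The partners of the other members were as follows in KO_A against KO_Y. There 248 of 9891 genes were called higher and 16 lower, and 1202 and 379 without KO_A-41. Of 14 genes of glutamate and glutamine handling 0 were called (median 0.02), led by Grm5, a metabotropic glutamate receptor (-0.34 ± 0.13, adjusted p = 0.139), and Slc38a3, a glutamine carrier (0.36 ± 0.15, adjusted p = 0.178). Without KO_A-41, Slc38a3 was called higher and Grm5 and Slc1a1, a neuronal glutamate transporter, lower (adjusted p = 0.00914, 0.02 and 0.0215). Of 11 endfoot and gap junction partners only Mlc1, which is also on the astrocyte list, was called (median -0.03). Without KO_A-41 the median was 0.06, with Mlc1, Hepacam and Kcnj10 called higher and Dag1 and Agrn lower. Of 11 genes of FGF receptor signalling 0 were called (median 0.06), led by Spred1, an inhibitor of the pathway (0.19 ± 0.06, adjusted p = 0.105). Without KO_A-41 Spred1, Fgf1 and Fgfr2 were called higher (median 0.07, adjusted p = 0.0325, 0.0236 and 0.0487). Of 16 genes that glucocorticoids induce, 3 were called higher, namely Mertk, a phagocytic receptor (0.36 ± 0.06, adjusted p = 0.00714), Pdk4 (0.54 ± 0.13, adjusted p = 0.0362) and Sult1a1 (0.59 ± 0.15, adjusted p = 0.0456), with a median of -0.03. Without KO_A-41 these 3 and Mt1 were called higher (median -0.08). Mertk was also called in WT_A against WT_Y (0.30 ± 0.05, adjusted p = 0.0116), where 60 of 9891 genes were called higher. Within groups 12 of these 16 had an r above 0 with Etnppl (median 0.27), with Mt1 and Mt2 among them, and 13 had without KO_A-41. Over the glutamate, endfoot and FGF lists the median r was 0.05, 0.05 and -0.01, and 0.05, -0.09 and -0.17 without that mouse.

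Markers of other cell types were read in the same comparisons. Of 9 measured microglial markers 8 were called higher in KO_A against KO_Y (median 0.69), 9 without KO_A-41, where 248 and 1202 of 9891 genes were. In WT_A against WT_Y, where the members were not called, 6 of the 9 were called higher (median 0.59), where 60 of 9891 genes were. Their summed intensity was 5446 to 8278 in KO_A and 4116 to 4972 in KO_Y. No marker of the choroid plexus, ependyma, oligodendrocytes, neurones, endothelium, leptomeninges or blood and liver was called in KO_A against KO_Y. Their medians there were 1.01 for the choroid plexus (8 of 8 above 0), 0.25 for ependyma (3 of 3), 0.13 for oligodendrocytes (8 of 8), -0.03 for neurones, -0.11 for endothelium, -0.01 for leptomeninges and -0.40 for blood and liver. Without KO_A-41, 3 neuronal markers were called lower and 1 oligodendrocyte marker higher, and the choroid plexus median was 1.65. Over all 9891 genes 379 were called lower and 1202 higher without that mouse. Among 3 oligodendrocyte precursor markers Gpr17 was called lower with KO_A-41 included (-0.55, adjusted p = 0.0191), where 16 of 9891 genes were.

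Within groups all 9 microglial markers had an r above 0 with Etnppl (median 0.54, and 0.42 without KO_A-41), as had all 8 oligodendrocyte markers (0.46 and 0.28) and 3 ependymal markers (0.50 and 0.33). The medians were -0.35 and -0.04 for 10 neuronal markers, 0.08 and -0.15 for 8 choroid plexus markers and -0.12 and -0.26 for 10 leptomeningeal markers. They were -0.10 and 0.01 for 3 precursor markers, -0.01 and 0.11 for 5 endothelial markers and 0.27 and 0.32 for 2 markers of blood and liver. No marker list had a gene past the permutation test with Etnppl.

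Mouse KO_A-41 lay outside the range of the other KO_A mice for 4 of the marker lists and inside it for the others. Its summed intensity of choroid plexus markers was 6903 against 21334 to 22625 in the other 3, of microglial markers 5446 against 6131 to 8278 and of ependymal markers 273 against 358 to 628. Its neuronal markers summed to 41821 against 35954 to 38772. Its oligodendrocyte markers summed to 25259, within 24293 to 37811, and its leptomeningeal markers to 2416, within 1518 to 3414. Its endothelial, precursor and blood and liver sums also lay within those of the other 3. The CA1 marker Wfs1 read 574 to 749 in KO_A and 769 to 930.4 in KO_Y, without overlap, which held for 1.77% of the probe sets in that direction. Prox1 and Nrgn, read as further checks on the tissue, overlapped between the groups. Prox1 read 110.2 to 144.2 in KO_A and 141.4 to 227.3 in KO_Y, and Nrgn 2337 to 3274 and 3154 to 3363. The part of tissue composition or dissection in the members' differences was not tested.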

How the data were processed

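Hippocampal RNA of 20 male mice (5 groups of 4) was hybridised by the authors to Affymetrix Mouse Genome arrays, 1 per mouse. The deposited intensity values had been background-corrected, quantile-normalised and summarised per probe set by RMA (affy, R 2.8.0), and are on a linear scale. The array medians were 39.4 to 41.3. Arrays give no read depth, and the number of mice limits the precision. A probe set was kept where 2 or more arrays of the 20 read 100 or above (16995 of 45037, or 37.7%). Of all probe sets, 34945 had 1 gene symbol, 932 several and 9160 none, and only the first kind were named.

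Log2 values were fitted over all 5 groups with limma 3.58.1 (R 4.3.3) and moderated by eBayes, and p-values were adjusted by Benjamini-Hochberg over all probe sets kept. WT_A was the average of WT_AU and WT_AI. Calls were made at an adjusted p below 0.05. Within-group correlations used 100000 permutations of mice within groups (Python 3.11.15, numpy 2.4.6), two-sided and adjusted over 16994 probe sets. The scripts were tested on simulated data. The rank products that the authors used were not run here.

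The members, the pathway and marker lists and the tests were chosen with earlier results of these data known. Named were all 10 members, in each list the up to 4 genes of smallest p and every called gene where 5 or fewer were, and the 10 genes of highest and 5 of lowest r with Etnppl. Alternatives were other filters, array centring, array weights, a trended robust prior, fits of the compared groups alone, means over a member's probe sets, rank correlation, each genotype alone and leaving out each mouse.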

Additional observations from a re-analysis of the deposited data

Results flagged for a closer look

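In each of the 10 genes and 5 groups, 50 groups of 4 mice in all, the highest and the lowest mouse were checked for a gap to the nearest other mouse above 0.829 of the group's whole range. This picked out 2 groups, and chance alone picks out about 1 in 20. Fgfr3 in mouse WT_Y-374 read 978, and its gap was 0.877 of the range of WT_Y. Glul in mouse WT_AI-14 read 7755, and its gap was 0.858 of the range of WT_AI.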

How the results depend on the processing

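The number of members called in KO_A against KO_Y was the value most open to the processing. It was 0 as reported and 8 with array weights (21.8% of probe sets called). The lowest weights were those of WT_Y-374 (0.252), KO_A-41 (0.289) and KO_A-42 (0.315). The number called was 2 with each array centred on its median (2.75%, Fgfr3 and Aldh1l1, adjusted p = 0.0377 and 0.0478). It was 1 with a trended robust prior (2.4%, Fgfr3, adjusted p = 0.0436). It was 1 with the mean over all probe sets of a member, or over those past the filter, the latter chosen after seeing the data. This was Aldoc in both (adjusted p = 0.0187), where 2.43% and 2.41% of the probe sets were called. With array weights the count was 5 in KO_A against WT_A, 4 against WT_AI and 1 for the age effect. The shares of probe sets called there were 12.8%, 6.73% and 5.85%. Leaving out each mouse in turn gave 0 to 7 in KO_A against KO_Y. The count was 7 without KO_A-41 (15.5% of probe sets called), 2 without WT_Y-374 (2.99%) and 1 without KO_A-42 (2.09%). It was 0 to 4 in KO_A against WT_A, 0 to 1 against WT_AI and 0 to 1 for the age effect. The highest each time was without KO_A-41 (8.31%, 2.94% and 2.47% called). The count stayed at 0 for the other comparisons, as did all counts without the filter, with the stricter filter and with the compared groups fitted alone. Etnppl had an r above 0 with 8 members, 5 in the 12 wild-type mice alone, and 4 to 8 with a mouse left out (4 without KO_A-41). Its within-group SD ran from 0.394 to 0.462 with a mouse left out. Of 2510 refitted member values 56 changed sign, none of them a call, and 1 of them, Aldh1l1 in KO_Y against WT_Y, had exceeded its SE (-0.14, and 0.06 with the mean over all probe sets). The causes were not tested. The lists and the correlations of members and lists without KO_A-41 were added after seeing the data. No paired analysis was possible because the label numbers are those of single animals and no number is shared between groups.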
